A study of Saccharomyces cerevisiae with 6 samples.

Results

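Messenger RNAs for the small subunit of the mitochondrial ribosome were followed in aged and young cells of budding yeast, Saccharomyces cerevisiae. The genes were chosen by name from the deposited table. They are the RSM and MRPS genes with a number, together with MRP1, MRP2, MRP4, MRP10, MRP13, MRP17, MRP21, MRP51, EHD3, NAM9, PET123, SWS2 and YMR31. This gave 33 of the 7127 features listed. Poly(A) RNA was sequenced from 3 aged and 3 young libraries of one wild-type strain, CGY4.51, whose genotype the labels write as MAT@. Aged cells were kept for 24 h in a ministat aging device, which retains bead-labelled mother cells while a flow of medium carries their daughters away. Young cells grew exponentially in synthetic complete medium. The aging protocol named for these cells used medium with methyl-alpha-D-mannopyranoside, so age cannot be told apart from the device and its medium. The labels give both groups the batch numbers 1, 2 and 3.

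The mitochondrial ribosome of yeast translates a handful of mRNAs encoded by mitochondrial DNA, mostly for membrane subunits of the respiratory complexes and the ATP synthase. Its small subunit holds the 15S rRNA, decodes the mRNA and, apart from 1 protein made inside the organelle, is built from proteins encoded in the nucleus and imported from the cytosol. Many of these proteins descend from bacterial ribosomal proteins, and others were added in the mitochondrial lineage. Of the 33 genes, 19 encode relatives of bacterial proteins and 12 encode mitochondria-specific proteins. The other genes are RSM22, a methyltransferase-like gene tied to assembly of the subunit, and YMR31, whose product is now known as a subunit of the alpha-ketoglutarate dehydrogenase complex.

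The mRNAs of nuclear-encoded mitochondrial ribosomal proteins are well-known targets of Puf3, an RNA-binding protein of the outer mitochondrial surface that recognises a core of TGTANATA downstream of the stop codon. RefSeq sequence of the R64 assembly held this core within 300 bases after the stop codon, on the coding strand, in 31 of the 33 genes (93.9%). It was found in 972 of 5997 nuclear protein-coding genes (16.2%) and in all 46 genes listed for the large subunit. The pair without it were RSM22 and YMR31. Every match follows, with the core in capitals and in order from the stop codon, for the 2 genes with the most negative fold change in aged cells, the 2 that rose, the 3 with the smallest change, and RSM19, the gene with the most matches.
RSM18: atagttctgtcTGTAAATAtacaatatgta
MRPS8: tatacggaccaTGTAAATAataatattata
MRPS18: atatatattcgTGTAAATAattcgattttt
MRPS5 site 1: aatactaTGTACATAcacacgcacca
MRPS5 site 2: ataataataccTGTAAATAtctcaacatac
MRP1 site 1: ttggtagtctcTGTAAATAtataaagtcaa
MRP1 site 2: tattcgtaatgTGTATATAacgtggtctta
MRPS16 site 1: tatgtatatgtTGTATATAtgttttacttg
MRPS16 site 2: tctatcagactTGTAAATAatacatctatg
EHD3: acttctatgcaTGTAAATAataaaagtaaa
RSM19 site 1: gggatctagTGTATATAgatttctagat
RSM19 site 2: atgatatatcaTGTAAATAagatcaagcca
RSM19 site 3: cagactcgggcTGTATATAtatatatatat

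The R64 positions are as follows: RSM18 chrV:253886-253915 (minus strand), MRPS8 chrXIII:572761-572790 (plus strand), MRPS18 chrXIV:58860-58889 (plus strand) and MRPS5 chrII:722314-722339 and chrII:722372-722401 (plus strand). The other positions are MRP1 chrIV:1170183-1170212 and chrIV:1170215-1170244 (plus strand), MRPS16 chrXVI:528881-528910 and chrXVI:528840-528869 (minus strand), EHD3 chrIV:523137-523166 (minus strand) and RSM19 chrXIV:695024-695051, chrXIV:694996-695025 and chrXIV:694968-694997 (minus strand). At least 1 core with an A in its open position was present in 13 of the 19 genes with a core that were lower in aged cells, in both that were higher and in 6 of the 10 that did not pass the test. RSM27, for example, has TGTACATA alone. Across the 31 genes there were 38 matches, of which 21 had A in that position, 9 had T, 7 had C and 1 had G. The share with A was 55.3%, beside 27.5% over the matches of all genes. Of the genes, RSM19 had 3 matches, 5 genes had 2 and 25 had 1. The first match began at a median of 55 bases after the stop codon, and within 100 bases in 28 of 31 genes (90.3%), beside 65.4% of all genes with a match. A match is a description of the sequence and not a measured site. The promoter motif AATTTT, which is known from mitochondrial ribosomal protein genes of other yeasts, was found on either strand between 250 bases before and 50 bases after the start in 11 of 33 genes (33.3%), against 51.7% of all genes.

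All 33 genes passed the filter on low counts, with no rounded count below 648 in any library. In aged cells 20 of the 33 mRNAs were lower and 2 were higher, while 11 did not pass the test. Among all 6755 tested features 30.8% were lower and 32.7% were higher by the same rule, an adjusted p under 0.05 in edgeR's quasi-likelihood test. These directions hold after scaling for library composition by TMM (trimmed mean of M-values), and with scaling by total counts alone 5 genes were lower and 17 were higher. The median log2 fold change of the 33 genes, aged over young, was -0.27 with a range from -1.16 to 0.58, and for all tested features it was 0.025. Of the 20 lower genes, 12 fell at least 1.5-fold. The smallest of these falls was in MRP13, and 14.3% of all tested features had a more negative fold change than MRP13. Levels in every aged library lay below those in every young library for 22 genes and above them for 2 genes, where 33.8% and 36.3% of all tested features did so. In bulk RNA, fewer cells of a type and less RNA per cell cannot be told apart.

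**Figure D1:**
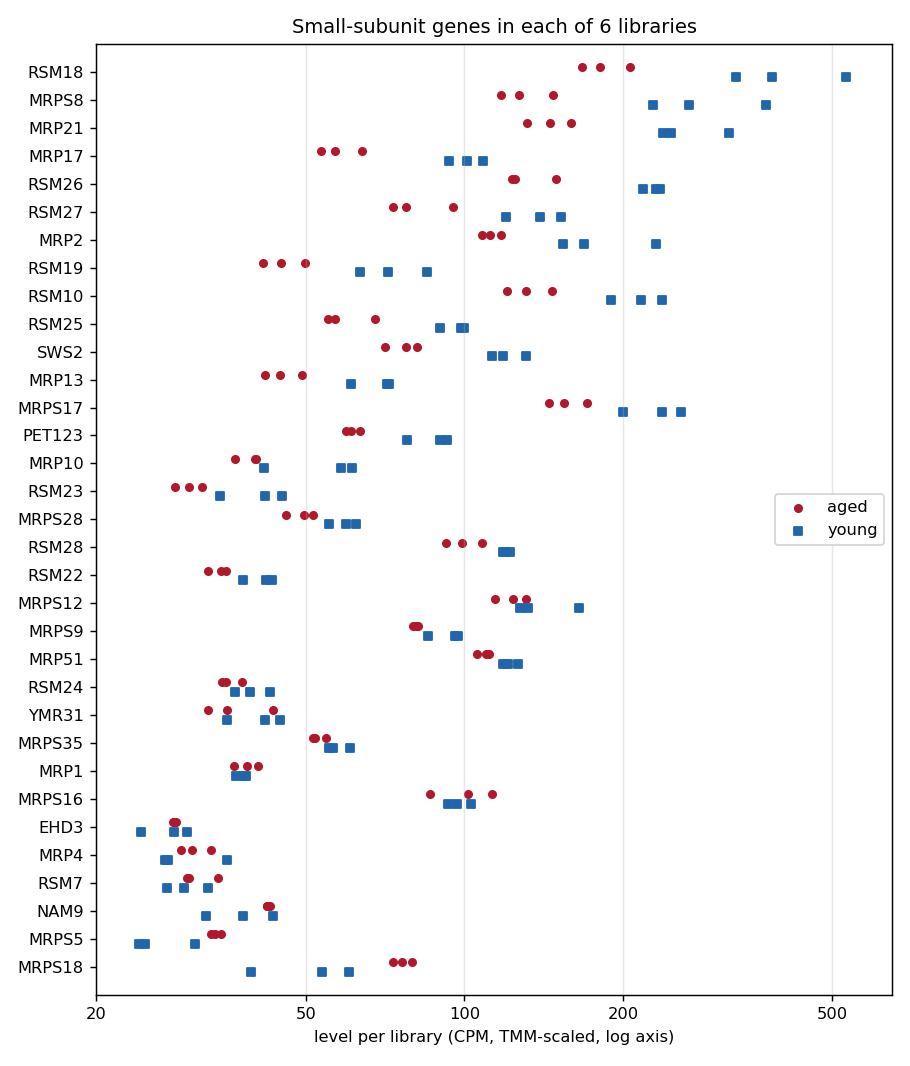
Level of each of the 33 genes in every library, in TMM-scaled CPM (counts rescaled to a common library size) on a log axis, with aged libraries as circles and young libraries as squares. Genes run from the most negative fold change at the top to the most positive at the bottom. RSM18 spans 167 to 206 CPM in aged libraries and 328 to 530.3 CPM in young libraries, while MRPS18 at the bottom is higher in all 3 aged libraries.

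Libraries held between 29230292 and 41650202 estimated counts. TMM factors were 1.21, 1.15 and 1.24 in aged replicates 1 to 3 and 0.896, 0.765 and 0.854 in young replicates 1 to 3. Young replicate 2 had the lowest factor, and its levels were the highest of the young libraries for 17 of the 33 genes and for 9 of the 10 with the highest level per kilobase. Without this library 19 genes were lower and 2 were higher. Among markers of daughter cells, 6 of 10 were higher and 1 lower in aged cells, beside 32.7% and 30.8% of all tested features. The summed level of these markers was 1357 to 1493 CPM in aged libraries and 1148 to 1226 CPM in young libraries. Their part in the results was not tested. Of 4 genes specific to alpha cells 2 were lower and 1 was higher, and their sum, 3389 to 3718 CPM in aged and 4386 to 5375 CPM in young libraries, was mostly MF(ALPHA)1. Of 7 genes specific to a cells 4 were higher, each of them under 5 CPM in both groups, and their sum was 38.4 to 41.6 CPM in aged and 32.3 to 39.4 CPM in young libraries.

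Among the 19 relatives of bacterial proteins, 11 were lower and 2 were higher, beside 30.8% and 32.7% of all tested features. The median log2 fold change of the 19 genes was -0.27. The largest falls were in RSM18 and MRPS8. RSM18 (YER050C, chrV:253971-254387, minus strand), which encodes the relative of bacterial S18, had 181, 206 and 167 CPM in aged replicates 1 to 3, against 328, 530.3 and 384 CPM in young replicates 1 to 3. The highest aged library lay well below the lowest young library. The log2 fold change was -1.16 (SE 0.16, 95% interval -1.52 to -0.81, adjusted p = 0.00014 in edgeR). Without young replicate 2 it was -0.94.

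MRPS8 (YMR158W), for the relative of S8, had 127, 148 and 117 CPM in aged libraries, against 228, 374 and 267 CPM in young libraries. As with RSM18, the groups did not overlap and young replicate 2 was the highest. The log2 fold change was -1.15 (SE 0.16, adjusted p = 0.000177 in edgeR). MRP21 (YBL090W), for the relative of S21, had 146, 159 and 132 CPM in aged libraries, against 238, 317 and 247 CPM in young libraries. Each aged library was again below each young one, by -0.88 on the log2 scale (SE 0.12, adjusted p = 0.000133 in edgeR).

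MRP17 (YKL003C) encodes the relative of S6, MRP2 (YPR166C) that of S14 and RSM19 (YNR037C) that of S19. MRP17 had 56.8, 63.96 and 53.4 CPM in aged libraries, against 93.6, 109 and 101 CPM in young libraries. The young libraries were close together, and the log2 fold change was -0.80 (SE 0.087, adjusted p = 3.54e-05 in edgeR). MRP2 had 112, 118 and 108 CPM in aged libraries, against 154, 231 and 169 CPM in young libraries. Here the spread lay mainly in the young group, and the log2 fold change was -0.71 (SE 0.13, adjusted p = 0.000899 in edgeR). RSM19 had 44.9, 49.7 and 41.4 CPM in aged libraries, against 63.4, 84.9 and 71.7 CPM in young libraries. The groups did not overlap, and the log2 fold change was -0.69 (SE 0.11, adjusted p = 0.000339 in edgeR).

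The other bacterial relatives that were lower had log2 fold changes of -0.69 for RSM10 (S10), -0.66 for SWS2 (S13), -0.57 for MRPS17 (S17), -0.27 for MRPS28 (S15) and -0.20 for MRPS9 (S9). The lower calls of the last pair rest on single libraries and on the scaling. With total counts alone MRPS28 and MRPS9 were called higher, at 0.24 and 0.32 (adjusted p = 0.0377 and 0.00775 in edgeR). After TMM scaling, MRPS28 had an edgeR adjusted p of 0.00974 with all libraries and 0.0517 without aged replicate 3. MRPS9 had 0.0313 with all libraries, and 0.0972, 0.0619 and 0.0926 without aged replicates 1, 2 and 3, and 0.0683 and 0.122 without young replicates 2 and 3.

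MRPS12 encodes the relative of S12, a protein of the decoding centre, and is the neighbour of RSM19, with 229 bases between their coding sequences on the same strand of chromosome XIV. It averaged 123 ± 8.22 CPM in aged and 141 ± 20.7 CPM in young cells (SD, n = 3 each), with overlapping groups and a log2 fold change of -0.20 (95% interval -0.44 to 0.027, adjusted p = 0.109 in edgeR). With the batch number as a block the edgeR adjusted p was 0.0274, in a fit that called 32.4% of all features lower and 34.8% higher, and without young replicate 1 it was 0.0259. The neighbours were thus called differently in the main test, and the difference between them was not tested.

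MRPS18 and MRPS5 were the members that rose. MRPS18 (YNL306W, relative of S11) had 79.5, 76.2 and 73.1 CPM in aged libraries, against 60.5, 39.3 and 53.5 CPM in young libraries. Every aged library was above every young one, with a log2 fold change of 0.58 (SE 0.13, 95% interval 0.29 to 0.86, adjusted p = 0.00288 in edgeR). MRPS5 (YBR251W, relative of S5) had 33.6, 32.9 and 34.5 CPM in aged libraries, against 30.7, 24.1 and 24.7 CPM in young libraries. The groups did not overlap, and the log2 fold change was 0.34 (SE 0.096, adjusted p = 0.00962 in edgeR). Both genes kept their call when any single library was left out, with edgeR adjusted p up to 0.0145 for MRPS18 and 0.0427 for MRPS5.

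Among the 12 mitochondria-specific genes, 8 were lower, beside 30.8% of all tested features, and the other 4 did not pass the test. The median log2 fold change of the 12 genes was -0.44. The difference between this class and the bacterial relatives was not tested. RSM26 (YJR101W), for a protein with the fold of iron/manganese superoxide dismutases, had 125, 149 and 123 CPM in aged libraries, against 219, 235 and 231 CPM in young libraries. All aged libraries lay below the young ones, which were close together, and the log2 fold change was -0.79 (SE 0.091, adjusted p = 4.92e-05 in edgeR). RSM27 (YGR215W, protein mS33) had 77.6, 94.9 and 73.0 CPM in aged libraries, against 120, 153 and 139 CPM in young libraries. Its groups did not overlap, with a log2 fold change of -0.75 (SE 0.11, adjusted p = 0.000297 in edgeR).

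The remaining lower genes of this class had log2 fold changes of -0.68 for RSM25 (mS23), -0.59 for MRP13 (mS44), -0.50 for PET123 (mS26, needed for respiratory growth), -0.46 for MRP10 (mS37, a twin CX9C protein), -0.43 for RSM23 (mS29, a relative of human DAP3) and -0.27 for RSM28 (mS46). RSM28 had an edgeR adjusted p of 0.0103, 0.0529 without aged replicate 3, and 0.0756 with an offset for GC content fitted together with the batch block. RSM22, outside both classes, had a log2 fold change of -0.27 and an edgeR adjusted p of 0.01, or 0.0547 without aged replicate 1 and 0.0651 with that offset and block. With total counts alone RSM28 and RSM22 were called higher, at 0.24 and 0.25 (adjusted p = 0.0393 and 0.0364 in edgeR). The lower calls of small size are thus less firm than those of the genes above. Calls of most genes with larger falls rest on the scaling as well. With total counts alone the genes still called lower were MRP17, MRP21, MRPS8, RSM18 and RSM26. MRP10 is among the shortest of the genes, and its call was lost with an offset for gene length fitted together with the batch block (adjusted p = 0.0915 in edgeR).

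**Figure D2:**
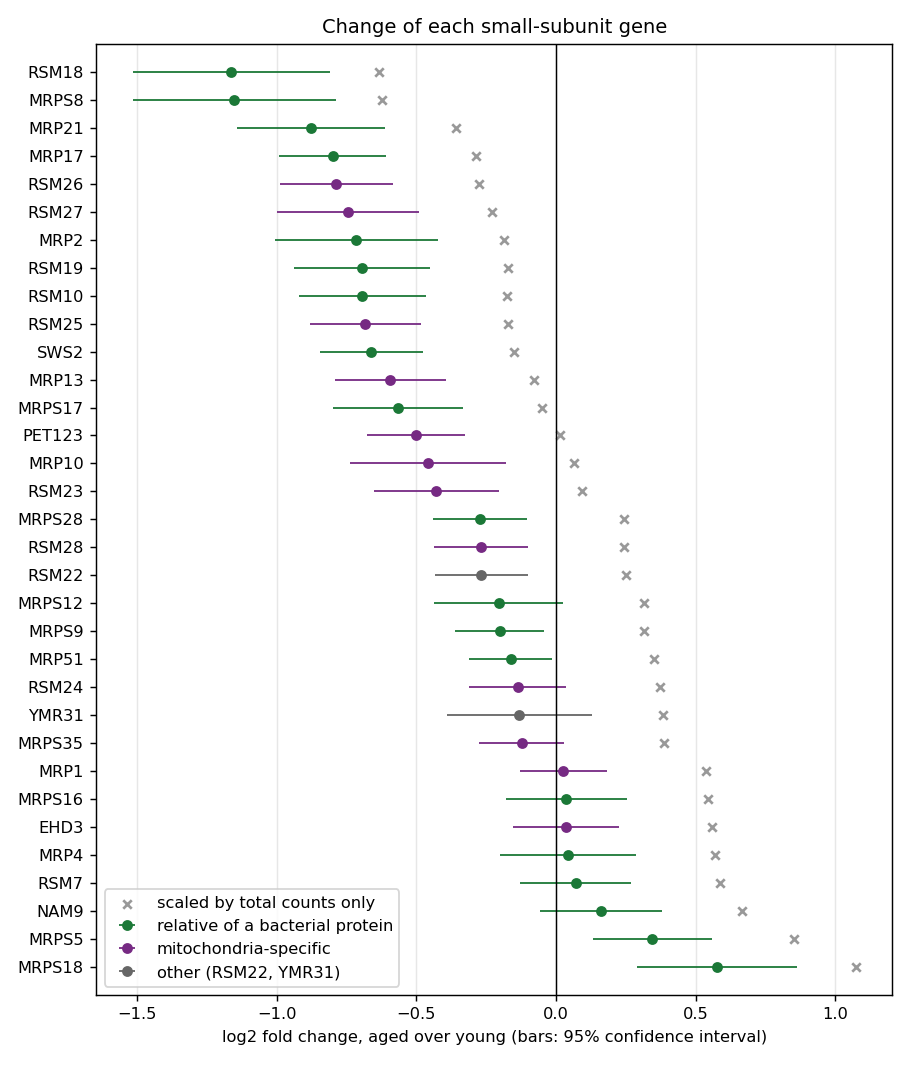
Log2 fold change, aged over young, of each of the 33 genes after TMM scaling (circles, with 95% confidence intervals) and with total counts as the only scaling (crosses). Circles range from -1.16 for RSM18 to 0.58 for MRPS18, and crosses lie to the right of them for every gene, so that genes with small falls have crosses above 0.

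Several genes differed little between the groups in the main test. MRP1 (YDR347W), which shares the superoxide dismutase fold with RSM26, had 38.6, 40.4 and 36.5 CPM in aged libraries, against 38.5, 38.1 and 36.8 CPM in young libraries. The values interleaved, and the log2 fold change was 0.026 (95% interval -0.13 to 0.18, adjusted p = 0.755 in edgeR). MRPS16 (YPL013C, relative of S16) had 101, 113 and 86.1 CPM in aged libraries, against 103, 96.9 and 92.9 CPM in young libraries. The groups overlapped, with a log2 fold change of 0.036 (95% interval -0.18 to 0.25, adjusted p = 0.761 in edgeR). With the length offset and batch block MRPS16 was called higher, at 0.29 (adjusted p = 0.00152 in edgeR). EHD3 (YDR036C) encodes a homologue of 3-hydroxyisobutyryl-CoA hydrolases bound to the subunit, and had 28.0, 28.3 and 28.0 CPM in aged libraries, against 24.3, 29.8 and 28.1 CPM in young libraries. The aged libraries lay within the range of the young ones, with a log2 fold change of 0.037 (95% interval -0.15 to 0.23, adjusted p = 0.719 in edgeR).

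The intervals of MRP1, MRPS16 and EHD3 belong to the main fit, with TMM scaling and no offset. Within that fit they limit a change in either direction without showing that there was none. With total counts alone MRP1, MRPS16 and EHD3 were called higher, at 0.54, 0.54 and 0.56 (adjusted p = 0.000287, 0.000638 and 0.000217 in edgeR). All tested features had a median of 0.54 there. NAM9 (relative of S4, a primary binder of rRNA) had a log2 fold change of 0.16 and an edgeR adjusted p of 0.17, or 0.0154 without young replicate 1 and 0.0167 with a GC offset and the batch block. MRP51 (assigned to the S1 position, and known to act with the leaders of COX1, COX2 and COX3 mRNAs) had -0.16 and an edgeR adjusted p of 0.055, or 0.0315 without young replicate 1, 0.00252 with the length offset and block, and 0.0244 in DESeq2. The levels of MRP51 did not overlap between groups, at 105 to 111 CPM in aged and 119 to 126 CPM in young libraries. RSM24, YMR31, MRPS35, RSM7 and MRP4 had log2 fold changes of -0.14, -0.13, -0.12, 0.070 and 0.043 and did not pass the test. The sign of RSM7 turned with an offset for GC content fitted with the batch block, to -0.28 (adjusted p = 0.0052 in edgeR). In that fit YMR31 was called lower, at -0.31 (adjusted p = 0.00334 in edgeR), and with the length offset and block RSM24 and MRPS35 were called lower (adjusted p = 0.0302 and 0.012 in edgeR). MRP4 overlaps the gene YHL005C on the opposite strand, and the strand setting of the counting is not given in the sources used here, so reads of the pair may be shared. YHL005C itself had 2.63 ± 0.372 CPM in aged and 2.14 ± 0.438 CPM in young cells (SD, n = 3 each).

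Summed over the 33 genes, the TMM-scaled level was 2494 ± 169 CPM in aged and 3659 ± 385 CPM in young cells (SD, n = 3 each). Each aged library, at 2466, 2675 and 2340 CPM, was below each young library, at 3323, 4079 and 3576 CPM. As a share of all counts, without TMM scaling, the sum was 0.297%, 0.306% and 0.290% in aged libraries and 0.298%, 0.312% and 0.305% in young libraries. These shares overlapped. The fall of the summed level is thus relative to the other genes after composition scaling. With total counts as the only scaling all tested features had a median log2 fold change of 0.54 and the 33 genes one of 0.24. In that fit 8.32% of all features were lower and 68.7% were higher, and the 5 lower genes were MRP17, MRP21, MRPS8, RSM18 and RSM26.

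**Figure D3:**
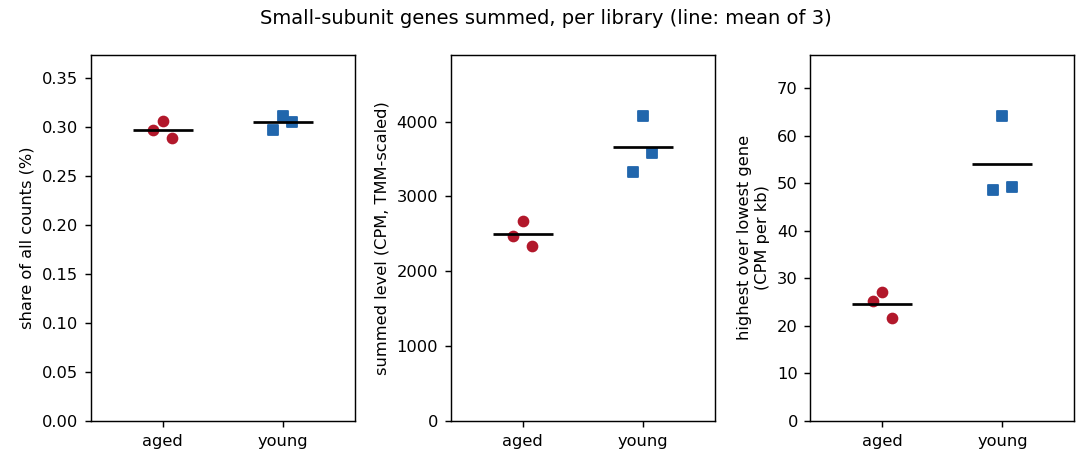
Values per library for the 33 genes together, with aged libraries at the left of each panel and young libraries at the right, and a line at the mean of 3. The left panel gives their share of all counts (%), the middle panel their summed TMM-scaled CPM, and the right panel the ratio of the highest to the lowest gene in CPM per kilobase of coding sequence. The shares overlap, while the sums (2340 to 2675 CPM in aged, 3323 to 4079 CPM in young libraries) and the ratios do not.

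The genes did not move in parallel, and their levels lay closer together in aged cells. Per kilobase of coding sequence, RSM18 was the highest in young cells, at 443 CPM in aged and 993 CPM in young cells, and EHD3 was the lowest, at 18.7 CPM in aged and 18.2 CPM in young cells. The ratio of the highest to the lowest gene was 25.2, 27.1 and 21.6 in aged libraries and 48.6, 64.2 and 49.2 in young libraries. The groups did not overlap, and young replicate 2 had the highest ratio. The SD of log2 CPM per kilobase over the 33 genes was 1.33, 1.38 and 1.28 in aged libraries and 1.55, 1.70 and 1.58 in young libraries. For the 46 large-subunit genes the ratio was likewise lower, at 24.6, 32.1 and 21.6 in aged libraries and 51.0, 82.4 and 64.8 in young libraries, so the narrowing is not particular to the small subunit. Both measures compare genes within a library and do not depend on how libraries are scaled.

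The same narrowing shows in the makeup of the sum. RSM18 alone made up 7.16% to 7.70% of it in aged and 9.87% to 13% in young libraries, while MRPS18 made up 2.85% to 3.22% in aged and 0.964% to 1.82% in young libraries. The 5 highest genes took 25.5% to 27.1% of the sum in aged libraries and 32.2% to 39.4% in young libraries.

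Of the 10 genes with the highest level per kilobase in young cells, 9 were lower in aged cells. Of the 10 with the lowest level 2 were lower and 1 was higher. Over all tested features 30.8% were lower and 32.7% were higher, and the shares among features of like level were not counted. Across the 33 genes, the log2 fold change and the log2 level per kilobase in young cells had a Pearson's r of -0.75 and a Spearman's rho of -0.77. The points share the young libraries, which enter both axes. With the level taken from young replicates 2 and 3 and the ratio of the aged mean to young replicate 1, r was also -0.75. Across 46 large-subunit genes r was -0.86, and across 5925 tested features with a length it was -0.52. Genes are not independent replicates, and these values are given as a description.

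**Figure D4:**
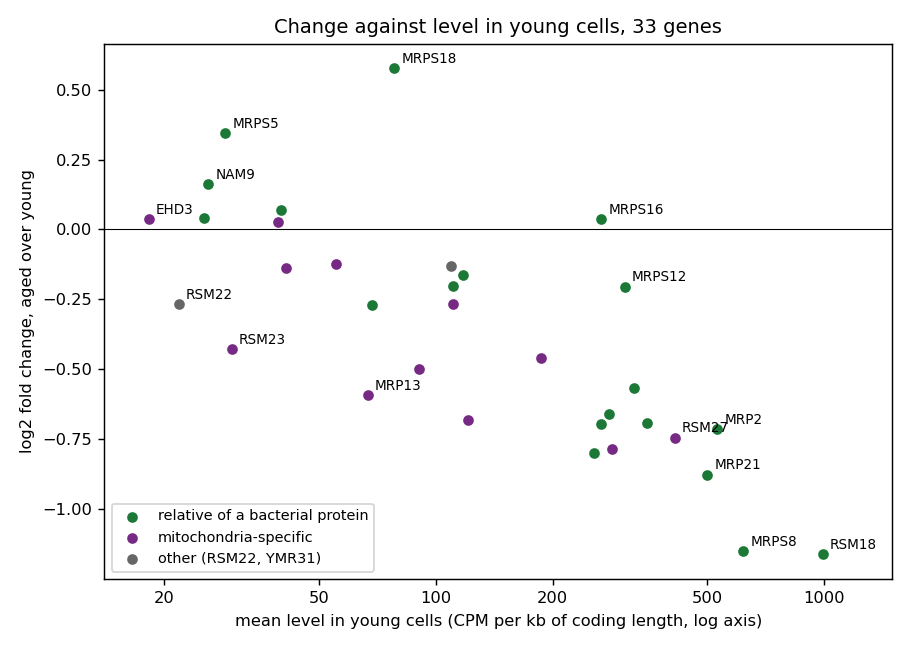
Log2 fold change, aged over young, against the mean level in young cells in CPM per kilobase of coding sequence (log axis) for the 33 genes, coloured by class. RSM18, MRPS8 and MRP21, among the highest genes in young cells, lie lowest, and MRPS16 and MRPS12 lie above other genes of their level.

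Coding sequences of the genes were short, with a median of 795 bases, beside 1203 bases for all tested features with a length. Among the 11 shortest genes (276 to 468 bases) 8 were lower with a median log2 fold change of -0.69, where 51.9% of all tested features from 276 to 531 bases were lower with a median of -0.33. Among the middle 11 genes (534 to 957 bases) 8 were lower and 2 were higher with a median of -0.50, where 37.4% of features of that length were lower. Among the 11 longest genes (960 to 1887 bases) 4 were lower with a median of -0.14, where 21.97% of features of that length were lower. Shorter genes were thus lower more often in the table as a whole, and the part of length in the falls of these genes was not tested beyond the offset named above. With the Puf3 core, 36.8% of all tested genes were lower, and without it 29.3% were.

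Of 4 further parts of the small subunit outside the naming rule, 3 were lower in aged cells, beside 30.8% of all tested features. VAR1, the protein of the subunit that is encoded in mitochondrial DNA, had 37.6 ± 3.70 CPM in aged and 67.3 ± 6.65 CPM in young cells (SD, n = 3 each), with a log2 fold change of -0.84 (adjusted p = 4.72e-05 in edgeR). FYV4 (protein mS41) had 20.5 ± 1.68 CPM in aged and 32.2 ± 3.54 CPM in young cells (SD, n = 3 each), with a log2 fold change of -0.65 (adjusted p = 0.000269 in edgeR). QRI5, also called COX24 (protein mS38), had a log2 fold change of -0.18 and an edgeR adjusted p of 0.0625, or 0.0398 with the batch block and 0.0313 without young replicate 1. The 15S rRNA had 10.5, 6.82 and 4.04 CPM in aged and 12.9, 12.9 and 10.7 CPM in young libraries, with a log2 fold change of -0.80 (adjusted p = 0.024 in edgeR, or 0.0641 without aged replicate 2). Selection for poly(A) removes RNA without a tail. The levels of this rRNA and of VAR1 mRNA, both made in the mitochondrion, are thus those of the RNA that passed the selection. With total counts alone VAR1 remained lower, at -0.32 (adjusted p = 0.00814 in edgeR). FYV4 and the 15S rRNA were then not called (adjusted p = 0.254 and 0.317 in edgeR), and QRI5 was called higher (adjusted p = 0.00834 in edgeR).

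**Figure D5:**
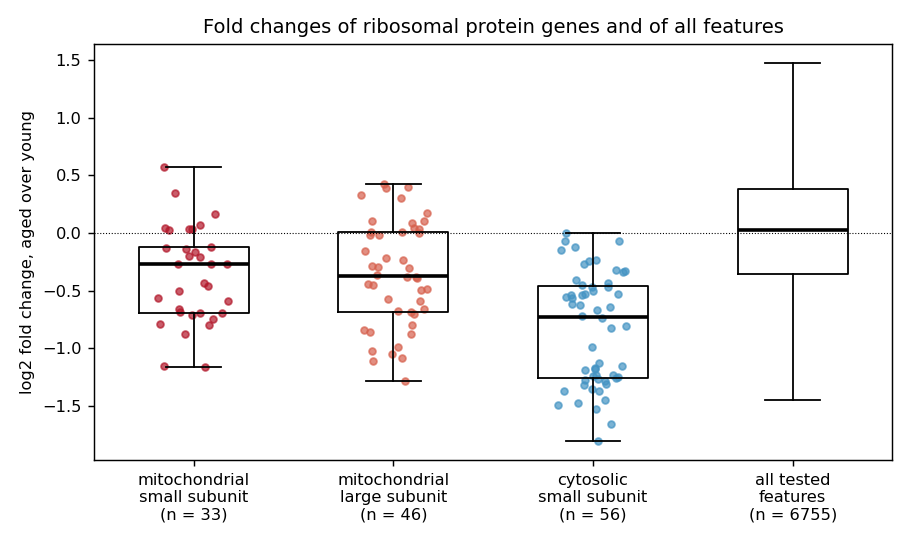
Log2 fold change, aged over young, after TMM scaling, for genes of the mitochondrial small subunit, the mitochondrial large subunit and the cytosolic small subunit and for all tested features. Points are genes, boxes give the median and quartiles, and whiskers reach the last value within 1.5 times the box height (outlying values of all features not drawn). Medians are -0.27, -0.37, -0.73 and 0.025, and scaling by total counts alone turns the first and second above 0.

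Of 46 genes for the large subunit of the mitochondrial ribosome, 29 were lower and 5 higher, beside 30.8% and 32.7% of all tested features. The median log2 fold change of the 46 genes was -0.37. With total counts alone 10 were lower, 19 were higher and the median was 0.14, and with the length offset and batch block 23 were lower, 8 were higher and the median was -0.18. MRPL15 had the lowest adjusted p among its lower genes, with 78.8 ± 6.10 CPM in aged and 145 ± 14.1 CPM in young cells (SD, n = 3 each, adjusted p = 2.78e-05 in edgeR). MHR1, which is also known for a role in mitochondrial DNA recombination, had the lowest among the higher genes, with a log2 fold change of 0.43 (adjusted p = 0.000599 in edgeR). The ratio of the small-subunit sum to the large-subunit sum was 0.911, 0.895 and 0.905 in aged and 0.891, 0.869 and 0.874 in young libraries. The ratios did not overlap between groups. Genes of the cytosolic small subunit were lower in 50 of 56 cases with a median of -0.73, of which RPS17A at -1.37 had the lowest adjusted p. With total counts alone 27 were lower, 7 were higher and the median was -0.21. The mitochondrial small-subunit sum was 1.96%, 1.91% and 1.92% of the cytosolic one in aged libraries and 1.38%, 1.30% and 1.37% in young libraries.

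Factors that work with the small subunit moved in both directions after TMM scaling. In the same fit 30.8% of all tested features were lower and 32.7% were higher, with a median of 0.025. With total counts alone, 7 of 8 translation factors and 13 of 14 aminoacyl-tRNA synthetases were higher, and the others did not pass the test. The medians were 0.66 and 0.63. In that fit 68.7% of all tested features were higher, with a median of 0.54. With TMM, of 8 mitochondrial translation factors, 3 were higher and 1 was lower, with a median log2 fold change of 0.14. MEF1, elongation factor G of the organelle, rose by 0.38 on the log2 scale (adjusted p = 0.00577 in edgeR). TUF1 (elongation factor Tu) rose by 0.24 (adjusted p = 0.0244 in edgeR). FMT1 (the formyltransferase of the initiator tRNA) rose by 0.62 (adjusted p = 0.0116 in edgeR). Its level was low, at 4.07 CPM in aged and 2.66 CPM in young cells. RRF1, the ribosome recycling factor, had -0.62 (adjusted p = 0.000582 in edgeR), a call lost with the GC offset and batch block. The higher calls were 2 without any one of aged replicates 1 to 3 or young replicates 2 and 3, and 1 at a threshold of 0.01. Of 14 mitochondrial aminoacyl-tRNA synthetases, which charge tRNAs with amino acids, 3 were higher, 3 were lower and the median was 0.12. The higher calls were 2 without any one of aged replicates 1 to 3 or young replicate 3. MSK1 (for lysine) had a log2 fold change of 0.57 (adjusted p = 0.000197 in edgeR) and MSE1 (for glutamate) one of -0.53 (adjusted p = 7.36e-05 in edgeR).

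Among 20 translational activators and membrane partners of the ribosome, 11 were lower and 2 were higher, with a median of -0.18 (0.34 with total counts alone). Of all tested features 30.8% were lower and 32.7% were higher, with a median of 0.025 (0.54 with total counts alone). CBP6, which acts with Cbp3 at the ribosome in cytochrome b synthesis, had 45.4 ± 5.46 CPM in aged and 111 ± 18.3 CPM in young cells (SD, n = 3 each), a log2 fold change of -1.29 (adjusted p = 1.98e-05 in edgeR). PET122, an activator of COX3 translation, had 0.54 (adjusted p = 0.00935 in edgeR), and 1 of the higher calls was lost without aged replicate 1 or 3 or young replicate 2 or 3. Of 10 genes for mitochondrial transcription, RNA handling and ribosome assembly, 3 were lower and 1 was higher, with a median of -0.13 (0.38 with total counts alone). Their share of lower genes, 30%, was close to that of all features. CCM1, a pentatricopeptide repeat protein needed for the 15S rRNA, had -0.79 (adjusted p = 5.23e-05 in edgeR), and the GTPase gene MTG1 had 0.27 (adjusted p = 0.0106 in edgeR), a call lost without aged replicate 3.

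Within batches, the median log2 difference of the 33 genes, aged minus young, was -0.21, -0.34 and -0.40 in batches 1, 2 and 3. It was -0.34, -0.25 and -0.43 for the large-subunit genes. For tested features with counts in both libraries it was 0.015, 0.039 and 0.021. Of the 33 genes, 27, 26 and 28 were lower, and for 27 the direction was the same in all 3 batches. The matching shares of all features were not counted, so these counts do not set the 33 genes apart. The count of lower genes was between 17 and 22 when each library was left out in turn.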

How the data were processed

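Poly(A) RNA of 3 aged and 3 young samples went into stranded libraries with paired reads. The authors deposited estimated counts per feature, made from aligned reads and not normalized. Between 54.3% and 59.5% of the values per library are not whole. The submitters' processing notes name bcl2fastq, cutadapt 2.6, STAR 2.7.6a, featureCounts, Subread 1.6.2 and build R64. The annotation and the strand setting are not given in the sources used here. Every library column of the table was matched to a sample (0 unmatched).

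Expected counts were rounded, filtered with filterByExpr (minimum count 10, leaving 6755 of 7127 features) and scaled by TMM. Groups were compared by edgeR's quasi-likelihood F-test (edgeR 4.0.16, R 4.3.3), with a two-sided test, no term but the group, and p-values adjusted by Benjamini-Hochberg over the 6755 features. Genes were called at an adjusted p under 0.05. Fold changes were not shrunk. The fit was run on simulated data with few, balanced changes and no difference in library composition. That run did not test the scaling. Alternatives were DESeq2 size factors, total counts only, other filters, the Wald test of DESeq2 1.42.0, a batch block, GC or length offsets (loess, span 0.5) with the block, a threshold of 0.01, leaving out RSM22 and YMR31, and leaving out each library.

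The labels give samples of both groups the same batch numbers. The numbers were taken as pairs in the fits with a batch block and in the differences within batches. The main test did not use them. Deviations of same-numbered samples from their group means correlated at 0.119, 0.316 and 0.113, and those of other pairs at between -0.285 and 0.194. The samples are labelled as biological replicates.

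The spread between libraries beyond counting error, as the common coefficient of variation of the fit, was 0.0873. For single genes this spread and counting error were not compared. No molecular identifiers were used. CPM per kilobase uses RefSeq coding lengths of R64, and 87.7% of tested features had a length and GC content. Motif windows can reach into neighbouring genes. The members and lists were chosen with earlier results of these data known. Every gene of the rule was named, with values in each library for the 8 called genes with the most negative and those with the most positive fold change, the 3 with the smallest change, and the highest and lowest per kilobase. In other lists the called gene of lowest adjusted p in each direction was named, and VAR1, QRI5, FYV4 and 15S rRNA. TUF1 and FMT1 were named after their values were seen.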

Additional observations from a re-analysis of the deposited data

How the results depend on the processing

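The counts and median of the 33 genes depended mainly on scaling. With total counts only, 5 genes were lower and 17 higher, and the median log2 fold change was 0.24. With the length offset and batch block the median was -0.37, and without YMR31 and RSM22 it was -0.43. The other planned settings left 17 to 22 genes lower and 2 or 3 higher. Leaving out each library gave 17 to 22 lower, 2 to 3 higher and medians of -0.33 to -0.28. With the replicate block 21 genes were lower and 2 higher, the median was -0.27, and MRPS12 was the one member whose call changed. The GC offset with the block lost the calls of RSM22 and RSM28 and gained 4, and the length offset with the block lost MRP10 and gained 4. The causes of these changes were not tested.

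The GC offset with the block left 1 large-subunit gene higher. Signs turned as follows. Total counts only gave medians of 0.14 (large subunit), 0.38 (rRNA and assembly list) and 0.34 (activators), and log2 fold changes of 0.065 for MRP10, 0.35 for MRP51, 0.32 for MRPS12, 0.24 for MRPS28, 0.39 for MRPS35, 0.32 for MRPS9, 0.016 for PET123, 0.25 for RSM22, 0.095 for RSM23, 0.37 for RSM24, 0.24 for RSM28, 0.38 for YMR31 and 0.33 for QRI5. Of these genes, all but MRP10, PET123 and RSM23 were called higher with total counts only. The GC offset with the block gave -0.10 for MRP1, -0.12 for MRP4, -0.11 for MRPS16 and -0.28 for RSM7, the last past the threshold (edgeR adjusted p = 0.0052). The length offset with the block gave a median of -0.023 for the aminoacyl-tRNA synthetases, -0.10 for EHD3, -0.036 for MRP1, -0.074 for MRP4, 0.019 for MRPS12, 0.12 for YMR31 and 0.084 for QRI5. Leaving out single libraries gave ranges of -0.054 to 0.10 for EHD3, -0.011 to 0.065 for MRP1, -0.030 to 0.18 for MRP4, -0.058 to 0.13 for MRPS16 and -0.0011 to 0.14 for RSM7, and the negative values were not called. The lowest rounded count of a member was 648.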
